A study of Saccharomyces cerevisiae with 4 samples.

Results

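The genes of glycolysis, ethanol fermentation and glycerol synthesis were followed in budding yeast whose GAL10 noncoding RNA was, or was not, inhibited by CRISPR interference. They were chosen by systematic name as the hexokinases, the glycolytic enzymes, the pyruvate decarboxylases, the alcohol and aldehyde dehydrogenases and the enzymes of glycerol synthesis, 37 genes of 7126 rows in the table. All 37 rows were found, and all had counts in every library. In these genes the guides differed little: with limma the hexokinase gene HXK1 was higher with the +116 guide and no other member passed, and DESeq2 also called TDH2 lower.

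The cells were Saccharomyces cerevisiae BY4741, a laboratory haploid of mating type a that cannot make histidine, leucine, methionine or uracil. They were cultured on glucose in synthetic medium that lacked leucine and uracil, and were taken at mid-log phase, after growth from an optical density of 0.1 to 0.4. Both groups carried the interference system, in which catalytically inactive Cas9 is directed by a guide RNA. The control guide was scrambled (2 libraries, A and B), and the other guide, +116, inhibits the GAL10 noncoding RNA (2 libraries, A and B). The design text counts them as 2 strains per guide without saying how these differ or were cultured, so the p-values measure the spread between these libraries, which may be technical. In bulk RNA, fewer cells of a kind and less RNA per cell cannot be told apart.

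Glycolysis splits each hexose into a pair of pyruvate molecules and yields ATP. On glucose this yeast ferments even in air: pyruvate decarboxylase makes acetaldehyde, alcohol dehydrogenase reduces it to ethanol, and aldehyde dehydrogenase diverts some to acetate, while glycerol synthesis takes up surplus NADH. Many steps are served by paralogous isozymes, of which some are made during growth on glucose and others are known to be repressed by it. The glycolytic genes are among the most highly expressed of the genome and are activated by Gcr1 and Rap1.

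The libraries held 34215480 to 40628383 reads recovered from the deposited values, and 6277 rows with a mean of at least 5 normalized counts were tested. A normalized count is a gene's read count divided by a factor for its library. At the targeted locus the groups were apart in GAL1 and GAL10 and overlapped in GAL7. GAL1 had 411 normalized counts in scrambled A and 469 in scrambled B, and 133 in +116 A and 116 in +116 B, and GAL10 had 94.96 normalized counts in scrambled A and 113 in scrambled B, and 192 in +116 A and 171 in +116 B. GAL7 had 108 normalized counts in scrambled A and 122 in scrambled B, and 106 in +116 A and 132 in +116 B. The GAL10 noncoding RNA itself was not analysed here. The a-cell markers MFA1, MFA2, STE2 and BAR1 summed to 67282 to 71704 normalized counts per library, and the alpha-cell markers STE3, MFALPHA1, MFALPHA2 and SAG1 to 1719 to 1988, none of them at 0. MET17, deleted in this strain, was at 0 in all 4. Across the genome the log2 folds rose with gene length, by 0.0553 per doubling (Spearman rho 0.560 over 5806 genes, which are not independent). Length was that of the coding sequence, or of the whole gene where no coding sequence was annotated. Values corrected for the length trend are given beside some of the results.

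With limma, which fits all genes together, 1 of the 37 genes passed an adjusted p of 0.05 as higher with the +116 guide, where 0.510% of all tested genes did, and 0 passed as lower, where 0.335% did. At an unadjusted p under 0.05, 6 genes were higher (11.5% of all tested genes were) and 2 were lower (10.3%). EdgeR's quasi-likelihood test on the recovered reads called 1 member higher (1.69% of all genes) and 0 lower (0.956%). DESeq2 gave an adjusted p to 30 members and called 1 higher (3.09%) and 1 lower (2.47%), the latter TDH2. In 10 members both +116 libraries lay above both scrambled ones, as in 27.3% of all tested genes, and in 4 they lay below, as in 26.3%. The count above is near the background share and is no result about these genes, and the count below is under it.

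The log2 folds of the 37 genes, +116 over scrambled, ran from −0.20 to 0.31, with 23 above 0 and 14 below. Their median was 0.030, beside 0.00130 over all tested genes. In size the changes were small, with a median absolute log2 fold of 0.0494 against 0.0864 for all tested genes, and 25 members were within 0.1 of 0. The comparison was not matched for level: 10 members averaged at least 100000 normalized counts, while the tested genes reach down to a mean of 5. It therefore does not show that these genes changed less than others of their level. For 28 members the fold was smaller than 2 of its standard errors. The plot of log2 folds shows HXK1 at the top. Of the other hexose kinase genes, GLK1 and EMI2 lie to the right of 0 and HXK2 just to the left, at −0.015. Most of the pathway is near 0.

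**Figure D1:**
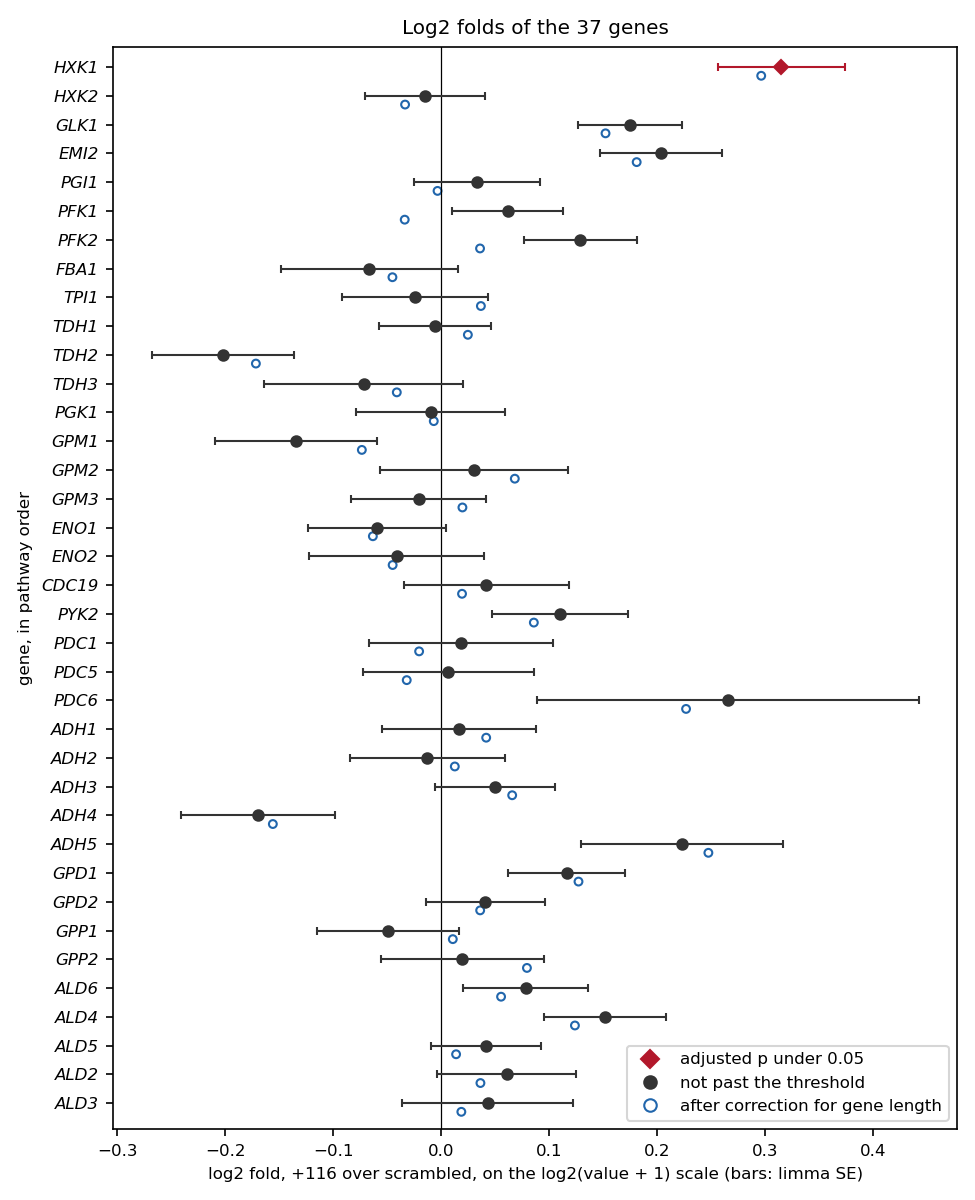
Log2 fold of each gene, +116 over scrambled, with the limma standard error as bars (n = 2 libraries per guide), genes in pathway order. HXK1, the filled diamond at 0.31, is the 1 gene past the adjusted threshold, and open circles give the values after correction for gene length.

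As a body these genes took 9.75% and 9.95% of all normalized counts in scrambled A and B, and 9.70% and 9.62% in +116 A and B. The groups did not overlap, but the scrambled libraries differed from each other by more than +116 A differed from scrambled A. The 10 members with the highest counts in each library held 89.4% to 89.95% of that sum, and 7 of the 10 rows with the most reads in the whole table were members. Per kilobase of coding sequence, a scale on which genes can be compared, the levels spanned 55.6 ± 8.62 normalized counts for PDC6 to 673565 ± 28276 for TDH3 (SD over the 4 libraries), and TDH3 ranked first of all coding genes. Of the other members FBA1 was highest, with 365156 ± 14465 normalized counts per kilobase, 6th among all coding genes. GPM1 (337326 ± 21108), ENO2 (321572 ± 6254) and PDC1 (316189 ± 2323) came next among the members, and in this order each gene's range over the libraries overlapped that of its neighbour, FBA1 included. Below these came ADH1 (230440 ± 2811), CDC19 (197453 ± 5835), TPI1 (169814 ± 6693) and PGK1 (158832 ± 2538), whose ranges over the 4 libraries did not overlap with one another.

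By enzyme step, the summed normalized counts per kilobase were highest for glyceraldehyde phosphate dehydrogenase, 780993 ± 34928 (SD, 4 libraries), and lowest in glycolysis for phosphofructokinase, 20234 ± 816. The first steps, up to phosphofructokinase, thus stood at far lower transcript levels than those from aldolase to alcohol dehydrogenase. Hexose phosphorylation had 34209.5 ± 1026 and phosphoglucose isomerase 34506 ± 1184, which did not differ beyond their spread. The aldolase step held 10.7 times the level of hexose phosphorylation, and the alcohol dehydrogenase step 7.62 times. The plot of levels shows this order and the small distance between libraries of each gene beside the distance between genes.

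**Figure D2:**
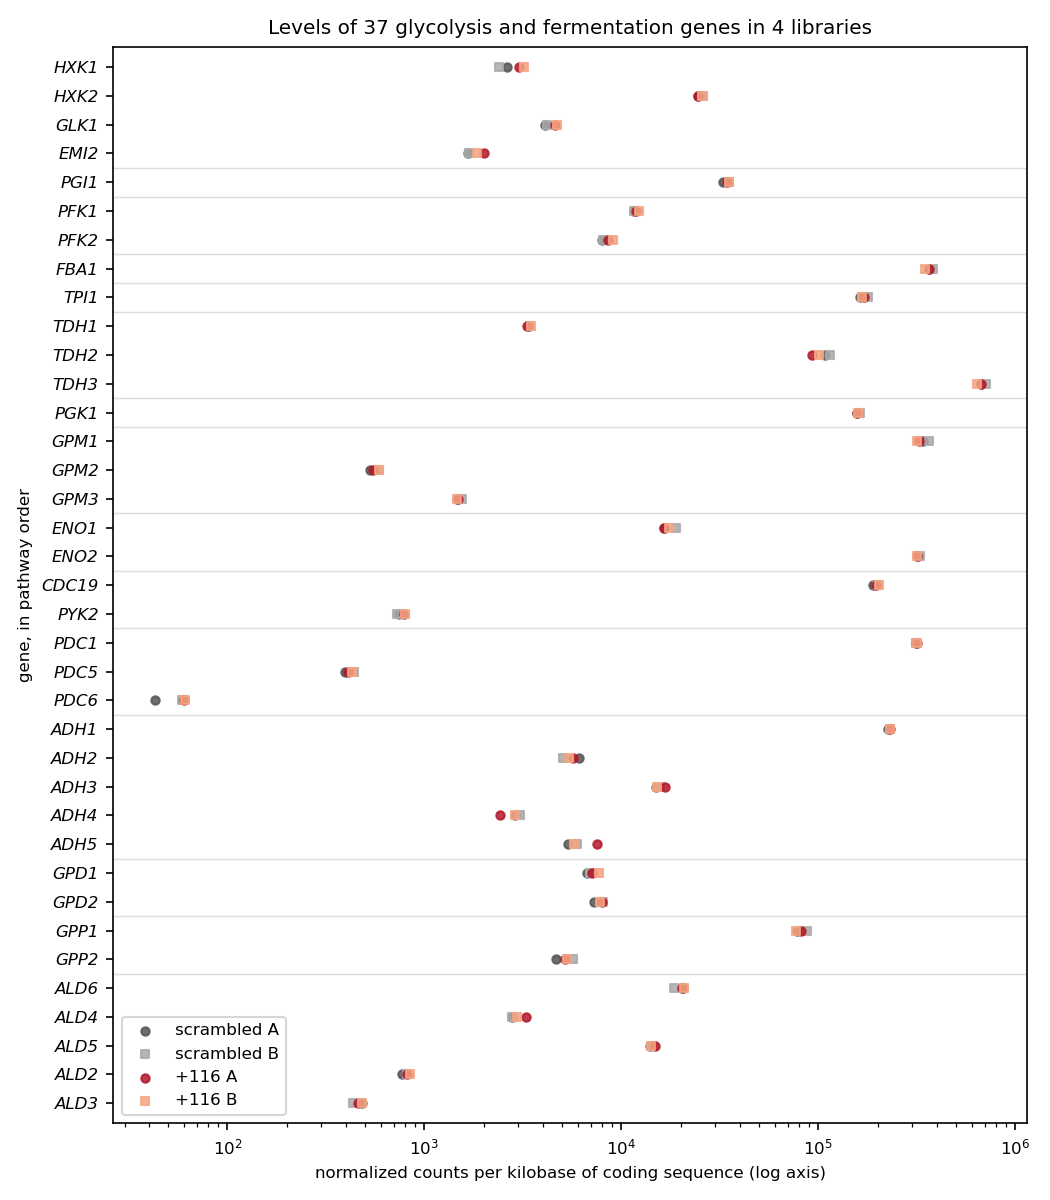
Normalized counts per kilobase of coding sequence (log axis) for the 37 genes in the 4 libraries, in pathway order with lines between enzyme steps. TDH3 lies farthest right and PDC6 farthest left, and the points of 1 gene mostly overlap.

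At the entry of glucose into the pathway, 1 of the 4 kinase genes, HXK1, passed the limma test. HXK2 (YGL253W), the main hexokinase during growth on glucose and also known for its part in glucose repression, had 35918 normalized counts in scrambled A and 38029 in scrambled B, and 35631 in +116 A and 37544 in +116 B. The groups overlapped, at a log2 fold of −0.015 (SE 0.056, limma adjusted p = 0.9). HXK1 (YFR053C), the second hexokinase, whose gene is known to be repressed by glucose, had 3850.1 normalized counts in scrambled A and 3479.9 in scrambled B, and 4429 in +116 A and 4679 in +116 B. Both +116 libraries were above both scrambled ones. It rose 1.24-fold, from 3665 ± 262 to 4554 ± 177 normalized counts (SD, n = 2), a log2 fold of 0.31 (SE 0.059, limma adjusted p = 0.0413). GLK1 (YCL040W), which encodes glucokinase, had 6166 normalized counts in scrambled A and 6298 in scrambled B, and 6946 in +116 A and 7122 in +116 B. The groups were apart, at a log2 fold of 0.17 (SE 0.048, limma adjusted p = 0.0851), without passing the test. EMI2 (YDR516C), a paralog of GLK1, had 2514 normalized counts in scrambled A and 2522 in scrambled B, and 3013 in +116 A and 2791 in +116 B. Here too the groups were apart, with the scrambled libraries nearly equal and +116 A the highest, at a log2 fold of 0.20 (SE 0.056, limma adjusted p = 0.0849).

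**Figure D3:**
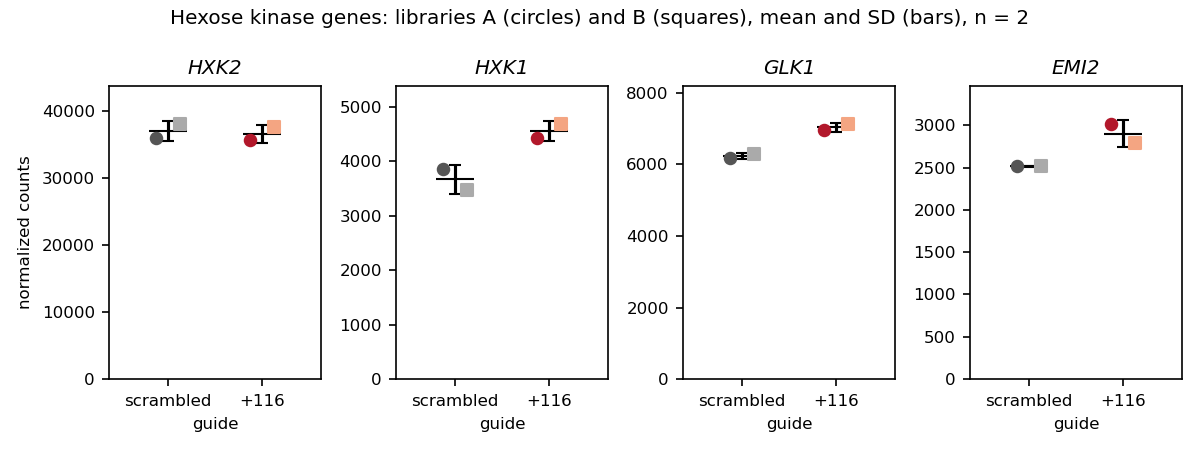
Normalized counts of the 4 hexose kinase genes by guide, from 0, with library A as circles, B as squares, and the mean with its SD (n = 2). HXK2 overlaps between guides, while HXK1, GLK1 and EMI2 are higher in both +116 libraries, HXK1 by 24.2% of its scrambled mean.

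HXK1 passed only with both scrambled libraries in the fit. With scrambled A left out, limma gave HXK1 a log2 fold of 0.39 (adjusted p = 0.106). With scrambled B left out it gave 0.24 (adjusted p = 0.661), and both fits called 0 genes of the whole table. Corrected for the length trend it was 0.30 (limma adjusted p = 0.254), in a fit that called 1 gene of 5806, and GLK1 and EMI2 were 0.15 and 0.18. Of 8 listed markers of cells past the diauxic shift, 0 passed the limma test on all libraries, with log2 folds of −0.17 to 0.073. Of all tested genes 0.510% passed as higher and 0.335% as lower, so a count of 0 among so few genes says little. ADH2 had the highest counts of these markers, 5323 to 6402 normalized counts. The 7 others summed to 1287 to 1335 per library, with ICL1 at 690 to 725 and FBP1, of gluconeogenesis, at 11.1 to 18.99.

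The upstream sequences of these genes are shown because in HXK1, GLK1 and EMI2 both +116 libraries were above both scrambled ones, and in HXK2 they were not. Each is the stretch from 450 to 151 bases before the start codon on the coding strand, read from RefSeq assembly R64 (the sources used here do not name the authors' build). It was searched on both strands for CCCCT, the core of the stress response element bound by Msn2 and Msn4, and for CTTCC, the core of the Gcr1 site, and matches are in capitals and can overlap. HXK1 (chrVI:255200-255499, minus strand) held 1 match of CCCCT and 3 of CTTCC. EMI2 (chrIV:1476627-1476926, minus strand) held 2 and 2, and HXK2 (chrVII:23485-23784, plus strand) held 0 and 0. The window of GLK1 runs into the neighbouring gene and is not shown. It held 3 matches of CCCCT and 0 of CTTCC.
HXK1: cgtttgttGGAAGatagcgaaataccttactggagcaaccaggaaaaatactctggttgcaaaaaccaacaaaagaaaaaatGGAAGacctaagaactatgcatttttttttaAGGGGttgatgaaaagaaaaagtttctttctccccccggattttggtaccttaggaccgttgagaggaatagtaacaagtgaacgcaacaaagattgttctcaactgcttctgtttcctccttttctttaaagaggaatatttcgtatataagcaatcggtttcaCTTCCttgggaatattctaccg
EMI2: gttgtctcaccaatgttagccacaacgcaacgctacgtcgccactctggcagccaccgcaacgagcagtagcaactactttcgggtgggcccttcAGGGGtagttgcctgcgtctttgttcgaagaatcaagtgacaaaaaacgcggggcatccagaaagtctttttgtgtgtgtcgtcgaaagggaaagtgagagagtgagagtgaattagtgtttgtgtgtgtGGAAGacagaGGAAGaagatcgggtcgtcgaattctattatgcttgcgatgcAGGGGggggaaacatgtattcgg
HXK2: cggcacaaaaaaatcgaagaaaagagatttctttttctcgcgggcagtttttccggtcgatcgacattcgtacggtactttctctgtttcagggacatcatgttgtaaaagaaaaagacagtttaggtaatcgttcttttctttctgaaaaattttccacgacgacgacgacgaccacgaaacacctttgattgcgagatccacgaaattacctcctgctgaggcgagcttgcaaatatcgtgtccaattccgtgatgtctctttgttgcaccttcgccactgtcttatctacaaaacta

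Over all 6006 protein-coding genes with such a window, 23.4% held CCCCT and 47.9% held CTTCC. Of the 37 members 21 (56.8%) and 22 (59.5%) did. A match is a run of letters and not a measured site, and members that did not pass the test, such as TDH3 with 2 CCCCT matches and ADH1 with 4 CTTCC matches, held them too.

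The rest of upper glycolysis showed no call. PGI1 (YBR196C), the single phosphoglucose isomerase gene, had 54727 normalized counts in scrambled A and 58900.2 in scrambled B, and 57278 in +116 A and 58902 in +116 B. The groups overlapped, at a log2 fold of 0.033 (SE 0.059, limma adjusted p = 0.779). Phosphofructokinase, the step at which flux is known to be regulated, is built of a subunit from PFK1 (YGR240C) and another from PFK2 (YMR205C). PFK1 had 34246 normalized counts in scrambled A and 34333 in scrambled B, and 35218 in +116 A and 36339.9 in +116 B. PFK2 had 23015 normalized counts in scrambled A and 23279.8 in scrambled B, and 24561 in +116 A and 26076 in +116 B. In both genes the groups were apart, with a log2 fold of 0.061 (SE 0.052, limma adjusted p = 0.521) for PFK1 and a log2 fold of 0.13 (SE 0.052, limma adjusted p = 0.180) for PFK2. These are the longest members, of 2964 and 2880 coding bases, and after correction for the length trend their log2 folds were −0.034 and 0.036. Per kilobase, PFK1 was 1.35 to 1.45 times as high as PFK2, with both +116 libraries below both scrambled ones.

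FBA1 (YKL060C), the aldolase gene, had 394322 normalized counts in scrambled A and 412674 in scrambled B, and 395973 in +116 A and 374506 in +116 B. The groups overlapped, at a log2 fold of −0.067 (SE 0.082, limma adjusted p = 0.664). TPI1 (YDR050C), the triose phosphate isomerase gene, had 122297 normalized counts in scrambled A and 133642 in scrambled B, and 127412 in +116 A and 124054 in +116 B. Both +116 values lay between the scrambled ones, at a log2 fold of −0.024 (SE 0.068, limma adjusted p = 0.865).

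Lower glycolysis opens with glyceraldehyde phosphate dehydrogenase, encoded by TDH3 (YGR192C), TDH2 (YJR009C) and TDH1 (YJL052W), the last known mainly from stationary cells. TDH3 had 671206 normalized counts in scrambled A and 708190 in scrambled B, and 673117 in +116 A and 639054 in +116 B. The groups overlapped, at a log2 fold of −0.072 (SE 0.092, limma adjusted p = 0.678). TDH2 had 107669 normalized counts in scrambled A and 114717 in scrambled B, and 93125 in +116 A and 100165 in +116 B. Both +116 libraries were below both scrambled ones, with a change in the mean of −13.1%, at a log2 fold of −0.20 (SE 0.066, limma adjusted p = 0.115), which did not pass. DESeq2 alone of the count tests passed it (adjusted p = 0.0278, and 0.0498 without its independent filtering, edgeR adjusted p = 0.0746), and the length correction left −0.17 (limma adjusted p = 0.292). TDH1 stayed between 3327 and 3461 normalized counts in all 4 libraries, at a log2 fold of −0.00624.

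How far such isozymes can be told apart depends on their sequence. The sources used here give neither the read length nor the treatment of reads with several matches. TDH2 and TDH3 were 95.8% identical over 999 coding bases, with a longest identical run of 173. Of all 50-base words in TDH2, 31.3% occurred elsewhere in the genome, and of 100-base words 12.8%. Reads from such stretches could be assigned to either gene, so the values of TDH1, TDH2 and TDH3 are uncertain. A share of words does not give the size of this, which also depends on the level of the partner genes. Of the 50-base words in TDH1, the least abundant of the 3, 15.7% occurred elsewhere. How much of the TDH1 count came from TDH2 or TDH3 transcripts was not tested. The first 60 coding bases of the 3 genes, from RefSeq R64, show the scale of the difference, with capitals at the 7 positions where they are not all alike.
TDH1: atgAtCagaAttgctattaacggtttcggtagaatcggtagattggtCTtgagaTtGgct
TDH2: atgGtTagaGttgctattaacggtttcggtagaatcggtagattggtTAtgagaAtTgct
TDH3: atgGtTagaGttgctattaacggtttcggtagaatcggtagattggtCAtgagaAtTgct

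PGK1 (YCR012W), of phosphoglycerate kinase, had 195743 normalized counts in scrambled A and 203056 in scrambled B, and 197117 in +116 A and 198879 in +116 B. The +116 values lay inside the scrambled range, at a log2 fold of −0.00995 (SE 0.069, limma adjusted p = 0.950). GPM1 (YKL152C), the main phosphoglycerate mutase gene, had 253380 normalized counts in scrambled A and 272134 in scrambled B, and 241227 in +116 A and 237140 in +116 B. Both +116 libraries were lower, at a log2 fold of −0.13 (SE 0.075, limma adjusted p = 0.308). GPM1 is the shortest member, of 744 coding bases, and corrected for the length trend its log2 fold was −0.074. Its homologs GPM2 (YDL021W) and GPM3 (YOL056W), for which no mutase role is established, had 494 to 553 and 1329 to 1409 normalized counts. The groups of both overlapped, at log2 folds of 0.030 and −0.021.

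The enolase genes are ENO2 (YHR174W), the form made on glucose, and ENO1 (YGR254W). ENO2 had 423438 normalized counts in scrambled A and 433824 in scrambled B, and 415942 in +116 A and 416977 in +116 B. Both +116 libraries were below both scrambled ones, at a log2 fold of −0.041 (SE 0.081, limma adjusted p = 0.799). ENO1 ranged from 21684 to 24893 normalized counts, with a log2 fold of −0.060 and overlapping groups. The first 60 coding bases of the pair are identical, so a read confined to them fits both genes. The whole coding sequences were 94.8% identical and 23.6% of the 50-base words of ENO1 recur elsewhere.
ENO1: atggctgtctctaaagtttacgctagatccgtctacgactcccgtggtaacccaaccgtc
ENO2: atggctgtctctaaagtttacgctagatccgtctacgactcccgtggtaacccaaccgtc

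CDC19 (YAL038W), the pyruvate kinase gene used on glucose, had 286239 normalized counts in scrambled A and 298736 in scrambled B, and 294763 in +116 A and 307350 in +116 B. The groups overlapped, at a log2 fold of 0.042 (SE 0.076, limma adjusted p = 0.784). Its paralog PYK2 (YOR347C), known to be repressed by glucose, had 1103 to 1209.9 normalized counts. Both +116 libraries were above the scrambled ones, at a log2 fold of 0.11 that did not pass (limma adjusted p = 0.326). Per kilobase CDC19 was 249 to 274 times as high as PYK2.

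In fermentation, no member passed the test in either direction. PDC1 (YLR044C), the main pyruvate decarboxylase gene, varied least of the abundant members, with 531069 normalized counts in scrambled A and 532269 in scrambled B, and 539170 in +116 A and 537460 in +116 B. The groups were apart by a small step, at a log2 fold of 0.018 (SE 0.085, limma adjusted p = 0.923), and the length correction turned the fold to −0.021. Per kilobase it was 714 to 794 times as high as PDC5 (YLR134W), an isozyme known to be induced when PDC1 is lost. The coding sequences of PDC1 and PDC5 are 87.2% identical with an identical run of 65 bases, and 0.974% of the 50-base words of PDC5 recur elsewhere. How much of the PDC5 count came from PDC1 transcripts was not tested. PDC6 (YGR087C), known from growth with little sulfur, had the lowest counts of all members, 72.4 in scrambled A and 99.7 to 103 in the other libraries. Its log2 fold of 0.27 had the largest standard error of the members (0.177), and without scrambled A it was 0.036.

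ADH1 (YOL086C), the alcohol dehydrogenase gene of fermentation, had 236991 normalized counts in scrambled A and 242872 in scrambled B, and 243480 in +116 A and 241739 in +116 B. The +116 values lay within or just above the scrambled range, at a log2 fold of 0.016 (SE 0.072, limma adjusted p = 0.918). ADH2 (YMR303C), the enzyme that consumes ethanol and is known to be strongly repressed by glucose, ranged from 5323 to 6402 normalized counts, highest and lowest in the 2 scrambled libraries, at a log2 fold of −0.013. Per kilobase ADH1 was 37.02 to 45.6 times as high. The 2 genes are 88.8% identical in coding sequence with an identical run of 189 bases, and 14.03% of the 50-base words of ADH2 recur elsewhere. How much of the ADH2 count came from ADH1 transcripts was not tested. The first 60 coding bases differ at 7 positions, in capitals.
ADH1: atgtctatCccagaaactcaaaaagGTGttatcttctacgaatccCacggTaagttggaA
ADH2: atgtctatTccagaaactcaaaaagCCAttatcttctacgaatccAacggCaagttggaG

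ADH3 (YMR083W), the mitochondrial isozyme, had overlapping groups between 16919 and 18754 normalized counts, at a log2 fold of 0.049. ADH4 (YGL256W), an alcohol dehydrogenase of another protein family, had 3298 normalized counts in scrambled A and 3531 in scrambled B, and 2793 in +116 A and 3295 in +116 B. The groups were narrowly apart, with +116 B almost at scrambled A, at a log2 fold of −0.17 (SE 0.071, limma adjusted p = 0.192). ADH5 (YBR145W), a further isozyme, had 5669.8 normalized counts in scrambled A and 6268 in scrambled B, and 7973 in +116 A and 6072 in +116 B. The +116 libraries differed from each other more than in any other member, and +116 B lay inside the scrambled range, at a log2 fold of 0.22 (SE 0.094, limma adjusted p = 0.193). Both values turned on +116 A: without it the log2 folds were −0.051 for ADH4 and 0.026 for ADH5, and without +116 B they were −0.29 and 0.42, both past the limma threshold.

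The aldehyde dehydrogenases oxidize acetaldehyde to acetate. ALD6 (YPL061W), the main cytosolic form, had 30764 normalized counts in scrambled A and 27883 in scrambled B, and 30494 in +116 A and 31334 in +116 B. The groups overlapped, at a log2 fold of 0.078 (SE 0.058, limma adjusted p = 0.456). The fold was 0.15 without scrambled A and 0.0069 without scrambled B. ALD4 (YOR374W), a mitochondrial form known to be repressed by glucose, had 4350.3 normalized counts in scrambled A and 4359 in scrambled B, and 5093 in +116 A and 4593 in +116 B. The groups were apart and the scrambled libraries nearly equal, at a log2 fold of 0.15 (SE 0.057, limma adjusted p = 0.156). Without +116 A its log2 fold was 0.077, and without +116 B it was 0.23 and passed. The mitochondrial ALD5 (YER073W) ranged from 21814 to 23263 normalized counts, with overlapping groups. The stress-induced cytosolic forms ALD2 (YMR170C) and ALD3 (YMR169C) had 1172 to 1278 and 656 to 732, also overlapping. ALD2 and ALD3 share an identical run of 329 bases, and 40.4% of their 50-base words recur elsewhere, the highest share of any member. Their split is therefore uncertain. A share of words leaves out the level of the partner gene, so it does not rank the splits by certainty.

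Glycerol synthesis was likewise without a call. GPD1 (YDL022W), the glycerol phosphate dehydrogenase gene known to be induced by osmotic stress, had 7885 normalized counts in scrambled A and 8146 in scrambled B, and 8302 in +116 A and 9087 in +116 B. The groups were apart, at a log2 fold of 0.12 (SE 0.054, limma adjusted p = 0.234). The fold was 0.18 without +116 A and 0.051 without +116 B. GPD2 (YOL059W), the isozyme known from growth without oxygen, had 9661 normalized counts in scrambled A and 10687 in scrambled B, and 10543 in +116 A and 10359 in +116 B. The groups overlapped, at a log2 fold of 0.041 (SE 0.055, limma adjusted p = 0.699). GPP1 (YIL053W), the main glycerol phosphatase gene, had 58558 normalized counts in scrambled A and 65784 in scrambled B, and 61774 in +116 A and 58230.5 in +116 B. The groups overlapped, at a log2 fold of −0.049 (SE 0.066, limma adjusted p = 0.692). GPP2 (YER062C), its osmotically induced paralog, was lowest in scrambled A and highest in scrambled B, at 3497 and 4288 normalized counts, with a log2 fold of 0.019.

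Division of each step among its genes was compared as the share of the step's normalized counts per kilobase. For the 33 genes of the 11 steps with more than 1 gene, differences were taken in percentage points. A gene with a small share can hardly move by 1 point, whatever its relative change. ADH5, for instance, held 2.10% in scrambled A and 2.85% in +116 A. In a step of 2 genes, both shares move by the same amount. In 9 of the 33 the group means differed by more than 1 percentage point, and the largest difference was −3.21 points, for HXK2. HXK2 held 74.5% and 75.9% with the scrambled guide and 71.6% and 72.4% with +116. HXK1 held 8.002% and 6.96% with the scrambled guide and 8.92% and 9.04% with +116, and GLK1 held 12.4% and 12.2% with the scrambled guide and 13.6% and 13.3% with +116. The groups were apart in each. Shares of a step sum to 100%, so that of HXK2 also moves with the levels of the other 3 kinases. With 2 libraries against 2, the exact two-sided permutation test cannot go below p = 0.333, the value it gave for these 3 genes, so this test can call no share.

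PFK1 held 59.1% and 58.9% with the scrambled guide and 58.2% and 57.5% with +116, the rest being PFK2. TDH3 held 85.8% and 85.7% with the scrambled guide and 87.5% and 86.05% with +116. TDH2 held 13.8% and 13.9% with the scrambled guide and 12.1% and 13.5% with +116, with +116 B close to the scrambled libraries. GPD1 held 47.9% and 46.2% with the scrambled guide and 46.97% and 49.7% with +116, with overlapping groups, and GPD2 the rest. These are the shares that moved by over 1 point. In the remaining steps a single gene dominated in every library: PDC1 held 99.8% to 99.9%, CDC19 99.6% in each, GPM1 99.4% in each, ENO2 94.6% to 95.1%, GPP1 93.6% to 94.4% and ADH1 87.8% to 88.8%. Aldehyde dehydrogenase was split, with ALD6 at 50.3% to 53.2% and ALD5 at 36.1% to 38.7%.

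**Figure D4:**
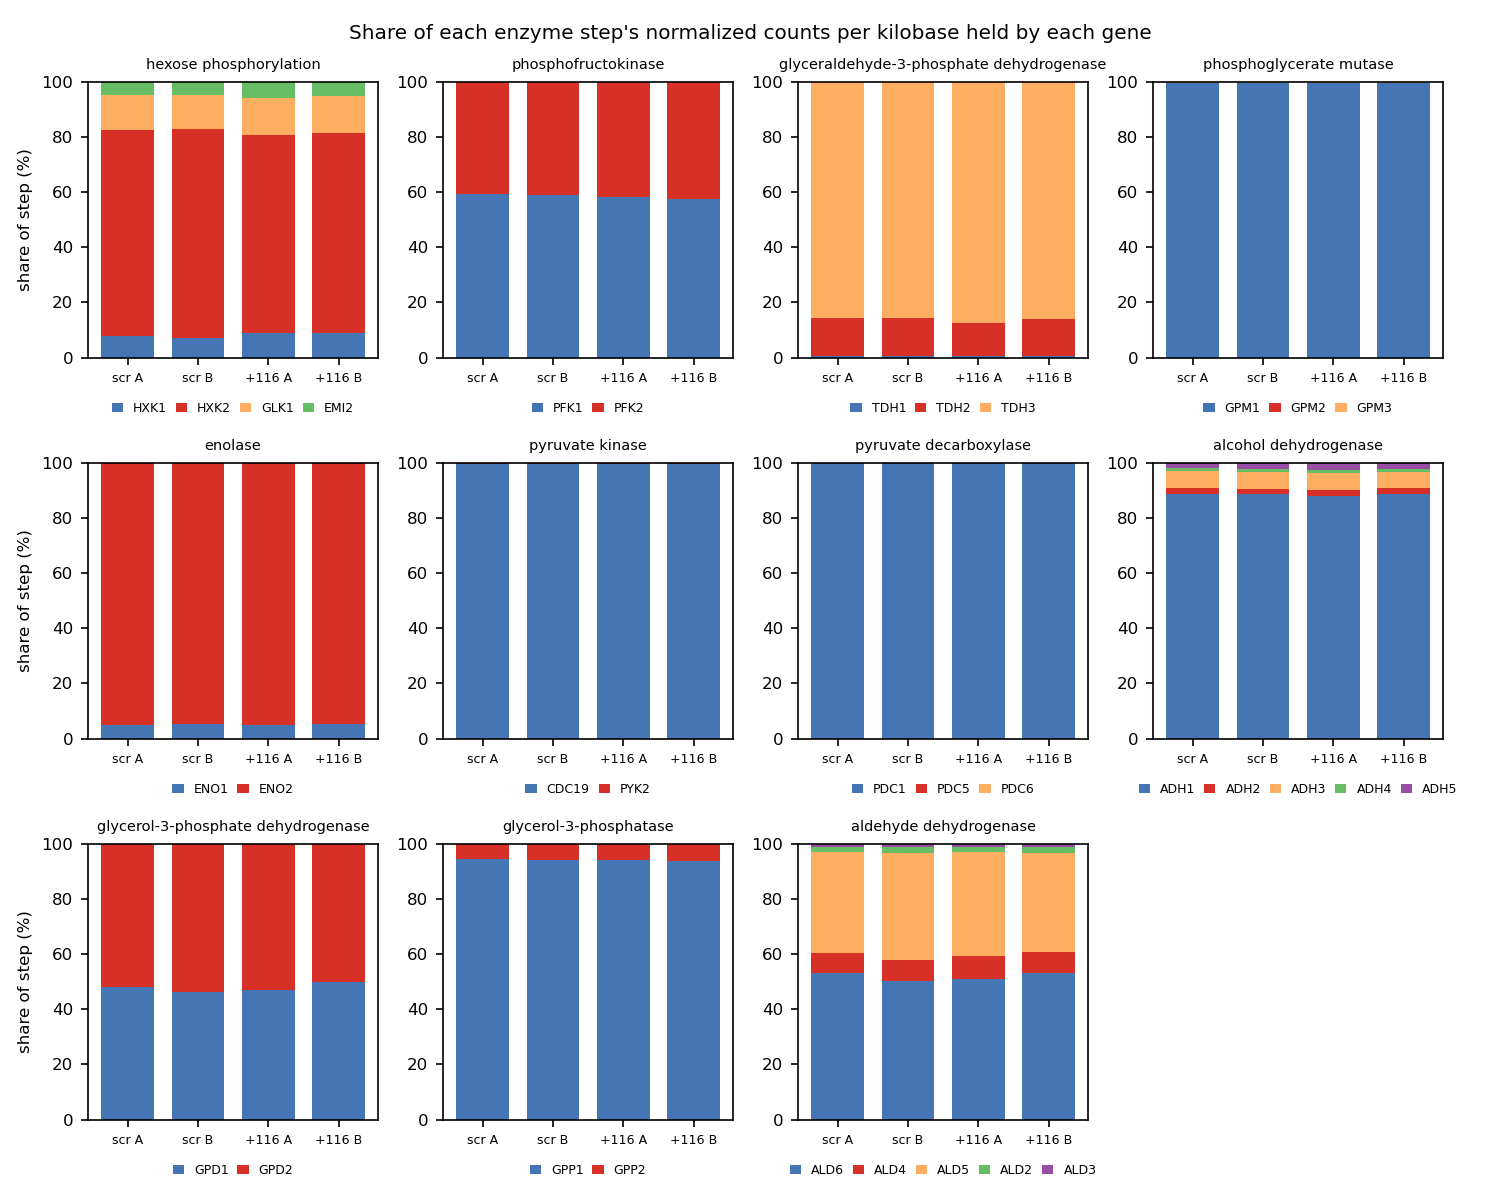
Share (percent) of each multi-gene step's normalized counts per kilobase held by each gene, as stacked bars for the 4 libraries. The first panel shows HXK2 at 71.6% to 75.9%, lowest with +116, and most other panels show 1 gene filling the bar.

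The leave-one-out plot gives the size of the log2 fold of the 10 members with the lowest p. In 9 of them the groups do not overlap, so their direction cannot change when 1 library is left out and says nothing of stability. The size of ADH5 varied most, from 0.03 to 0.42, and that of GLK1 least, from 0.16 to 0.19.

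**Figure D5:**
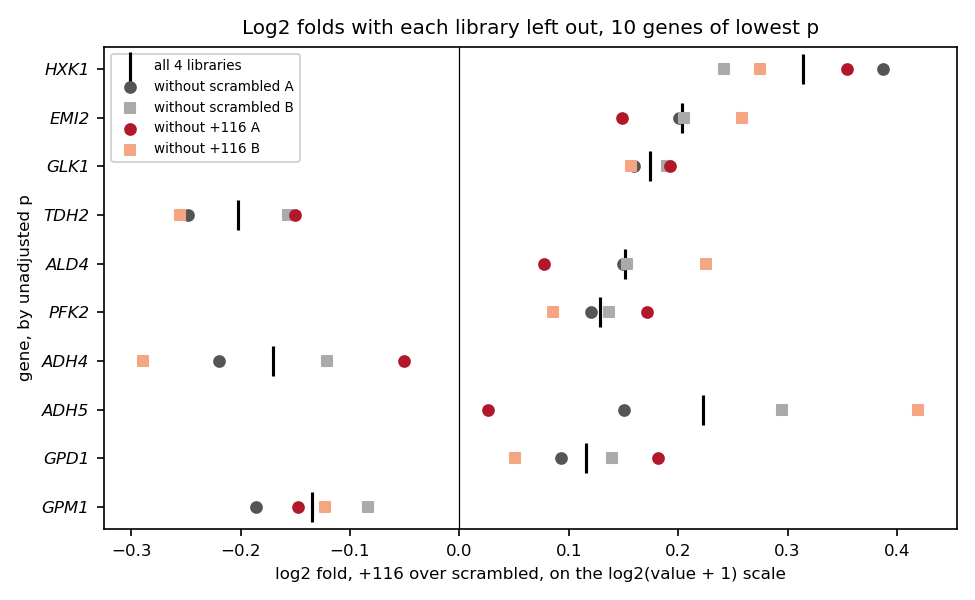
Log2 fold, +116 over scrambled, of the 10 genes with the lowest unadjusted p, with all libraries (bar) and with each library left out (symbols). The symbols of ADH5 and ADH4 spread the most, and those of GLK1 the least.

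Of 41 other genes of the pathway and its surroundings in 7 lists, limma called 1 higher and 0 lower and 40 did not pass. Their median log2 fold was 0.0674. EdgeR called 3 higher (ADR1, PYC1 and GUT2) and 0 lower. DESeq2, which gave 27 of the 41 an adjusted p, called 3 higher (ADR1, PYC1 and PYC2, the last named after its values were seen) and 1 lower (RKI1). Of all tested genes limma called 0.510% higher and 0.335% lower, edgeR 1.69% and 0.956%, and DESeq2 3.09% and 2.47%. Among 7 regulators ADR1, the activator of ADH2 and other genes of ethanol use, rose in all 3 tests, with 2227 normalized counts in scrambled A and 2243 in scrambled B, and 2748 in +116 A and 2836 in +116 B. The groups were apart, at a log2 fold of 0.32 (SE 0.054, limma adjusted p = 0.0271). ADR1 has a long coding sequence of 3972 bases, and after the length correction its log2 fold was 0.21 (limma adjusted p = 0.254). It also missed the threshold without scrambled A (log2 fold 0.32) and without scrambled B (0.33).

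At the pyruvate and acetate branch, 0 of 9 genes passed with limma. PYC1, one of the pyruvate carboxylase genes, had 10719 normalized counts in scrambled A and 12181 in scrambled B, and 13569 in +116 A and 14046 in +116 B. The groups were apart, at a log2 fold of 0.27 whose limma adjusted p of 0.05002 lay just over the threshold. Its adjusted p was 0.0420 with edgeR and 0.00679 with DESeq2. The length correction left 0.17. In the other lists the lowest p belonged to BDH1 of 5 further alcohol dehydrogenases (log2 fold 0.19, limma adjusted p = 0.103) and to GUT2 of 4 genes of glycerol use and transport (0.25, limma adjusted p = 0.0558). It belonged to RKI1 of 10 pentose phosphate genes (−0.20, limma adjusted p = 0.0664), to PFK26 of 3 genes that make or remove the activator of phosphofructokinase (0.17, and 0.092 after the length correction, limma adjusted p = 0.206), and to ERR3 of 3 enolase-related genes (0.53, limma adjusted p = 0.161). ERR3 had 85.9 normalized counts in scrambled A and 58.1 in scrambled B, and 115 in +116 A and 91.5 in +116 B, and its relatives ERR1 and ERR2 are close copies whose counts can share reads.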

How the data were processed

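Poly(A) RNA was sequenced from 4 libraries made with a stranded mRNA kit after hot phenol extraction and DNase treatment, per the labels' protocols. Per the submitters' processing notes the tools included bcl2fastq 1.8.4, Trimmomatic 0.30, TopHat2 2.0.8, Bowtie2, Picard 1.84 and DESeq2. The sources used here give no genome build, annotation, read counter or strand setting. The authors deposited 1 table of normalized counts, a signal that is never negative, in which each gene count had been divided by 1 size factor per library. Dividing each column by the worth of 1 read gave whole reads for 100% of values (relative tolerance 1e-06).

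Rows averaging 5 or more normalized counts entered limma 3.58.1 (R 4.3.3) with a variance trend on log2(value + 1) of the deposited values, two-sided, adjusted by Benjamini-Hochberg over all 6277 rows, threshold 0.05. Such folds understate changes of low genes. Alternatives were edgeR 4.0.16 and DESeq2 1.42.0 on recovered reads, other scalings, pseudocounts, filters and variance models. Further ones were a lowess correction (span 0.5) for log2 length, coding or else whole gene, and each library left out. The fits were tested on simulated data. Coding lengths and sequences came from RefSeq R64 by locus tag (6048 rows matched, all 37 members, none with an intron). The members and lists were chosen with earlier results of these data known. All 37 members are named, and values per library are given for 24: the highest gene of each step, any past the threshold, the 10 of lowest p, and those whose share moved by over 1 point. Same-letter libraries did not deviate together (correlation of their deviations from the group means over tested genes −0.0413). The main fit did not use the letters, and whether a letter marks a shared culture or batch is not known.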

Additional observations from a re-analysis of the deposited data

How the results depend on the processing

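HXK1 passed the threshold under 13 of 18 alternatives, at log2 folds of 0.27 to 0.35. It did not under 5: with no filter on low values, in limma without trend, after the length correction and without either scrambled library. The members called higher numbered 1 as reported, 0 with no filter, 0 in limma without trend, 0 after the length correction, 3 in robust limma (with GLK1 and EMI2), 2 with the replicate letter as a replicate block (with ADH5), and 0 to 4 with each library left out. Of all tested genes the same fits called 3.90% higher in robust limma, 2.71% with the block and 3.30% without +116 B, which gave the 4. The members called lower numbered 0 as reported, 1 in robust limma and 1 with DESeq2 (TDH2 in both), and 0 to 1 with each library left out (ADH4 without +116 B), where 2.63%, 2.47% and, without +116 B, 1.19% of all tested genes were. The block changed no other member's call. DESeq2 was first run without independent filtering, and its default filtering was adopted after those counts were seen: it called 69 genes higher and 48 lower of 6277 without, 100 and 80 of 3235 with, and 1 member each way in both. The median log2 fold of the members moved by less than its spread between libraries under every alternative tried, though without scrambled A it was −0.00156. That spread comes from the same differences between libraries that leaving 1 out brings in. The fits with a library left out could therefore hardly exceed it. Of 666 alternative log2 folds of single members, 618 kept direction and call, 5 lost a call, 10 gained one and 33 turned in sign. Each of those that turned was of a member without a call. 19 members never turned. The filters, limma without trend, robust limma and the block leave each log2 fold as reported, so no sign could turn there. Both DESeq2 runs gave the same log2 folds. Only HXK1 had a call to keep, so for the other members a kept call means none in either fit.

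Upper-quartile scaling turned PDC1 (−0.0027), PDC5 (−0.014), ADH1 (−0.00451) and GPP2 (−0.00138). The length correction turned PGI1 (−0.00363), PFK1 (−0.034), TPI1 (0.037), TDH1 (0.024), GPM3 (0.019), PDC1 (−0.021), PDC5 (−0.032), ADH2 (0.012) and GPP1 (0.010). With each library left out in turn, these members changed sign within their ranges: HXK2 (−0.056 to 0.026), PGI1 (−0.020 to 0.086), TPI1 (−0.088 to 0.040), TDH1 (−0.035 to 0.022), PGK1 (−0.036 to 0.017), GPM2 (−0.046 to 0.11), GPM3 (−0.064 to 0.021), ENO1 (−0.16 to 0.039), PDC5 (−0.071 to 0.084), ADH1 (−0.00156 to 0.034), ADH2 (−0.15 to 0.12), ADH3 (−0.014 to 0.11), GPD2 (−0.032 to 0.11), GPP1 (−0.13 to 0.035), GPP2 (−0.13 to 0.17) and ALD3 (−0.036 to 0.12). The cause was not tested. No member has an intron, so lengths with introns gave the same shares. Without division by length the share differences of GPM1 and GPM3 moved by more than their spread, and no others did. With 2 libraries a group, log2 folds of the size of most members' SEs, a median of 0.0658, could not be told from 0. Larger log2 folds went uncalled too, such as 0.17 (SE 0.048) for GLK1 and 0.20 (SE 0.056) for EMI2 in limma. The lack of a call therefore does not exclude changes of that size.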
